A study of Aedes albopictus with 6 samples.

Results

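Myophilin is a small actin-binding protein of the calponin family, first named from the muscle of a tapeworm. The annotation of the Asian tiger mosquito *Aedes albopictus* lists 6 genes described as myophilin or myophilin-like, and these 6, of 23529 genes with values, are the subject here. They are all the genes of the deposited table with that description (6 of 34479 rows). The family was chosen by the measured counts of one member, LOC109397705, which had already stood out as lower in treated than in control ovaries, and the rest were added by name. The difference between the groups therefore helped to choose them, and it is given below as a description, so that no call or p-value of a member in that contrast is support for it.

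RNA-seq libraries were made from ovaries, 3 for each of 2 groups. The control group is labelled NC, with the genotype given as control, and the other group is labelled OE, with Aalpi18529 overexpression as its genotype. Aalpi18529 is a PIWI-interacting RNA (piRNA), a small RNA bound by PIWI-family proteins, and the series' design text says that it was supplied as mimics to ovaries studied for their development after a blood meal. Strain, age, hours after the meal, the composition of the control treatment and the number of females per library are not stated in any source used here. Nothing says that the libraries came from separate cohorts, so the errors below measure only the spread between these libraries.

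Calponin-family proteins carry a calponin homology domain, a fold found in many proteins that bind actin filaments, and several of them are abundant in muscle, where they lie along the thin filaments. Muscle-specific protein 20 (Mp20), known from *Drosophila*, is a related calponin-like protein of muscle. The insect ovary is wrapped in a sheath of muscle cells whose contractions move the eggs, and actin filaments are also built in large amounts by its germ line and follicle cells. Both kinds of tissue enter a whole-ovary library. Such libraries cannot tell fewer cells of a type from less RNA per cell.

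Depth was nearly uniform, with 15719412 to 16465531 estimated counts per library and scaling factors of 0.991 to 1.01. The germ line was strongly represented, as the maternal gene exuperantia-2-like (LOC109399245) averaged 3170 ± 100 CPM (counts scaled to the same library total) in controls and 3110 ± 159 with overexpression (SD, n = 3). Muscle was present too, with muscle actin (LOC109426671) at 313 ± 29.2 and 299 ± 7.55 CPM and muscle myosin heavy chain-like (LOC109429391) at 188 ± 5.95 and 180 ± 9.49 CPM. The quasi-likelihood test of edgeR called 2 of 15540 genes (0.0129%) at a Benjamini-Hochberg adjusted p of 0.05, and 764 (4.92%) had an unadjusted p under 0.05. None of the 6 myophilin genes was among the 2.

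The positions of the 6 genes set 3 of them apart. LOC109397705 (gene ID 109397705, transcript XM_019670018, scaffold NW_021838565.1, positions 1329680 to 1345821) lies entirely within the span of LOC109432988, an Mp20 gene at positions 1257575 to 1486119 of the same scaffold. LOC115269579 (transcript XM_029878396, positions 6752738 to 6768192 of the same scaffold, 5406916 bp further on) lies within LOC115269578, an Mp20-like gene at 6633508 to 6845980. LOC109432989 (transcript XM_019709361, scaffold NW_021838987.1, positions 2196495 to 2213885) lies within LOC109397703, another Mp20-like gene, at 2075835 to 2282463. The same pair of neighbours, a myophilin-like gene of 15455 to 17391 bp inside an Mp20 gene of 206629 to 228545 bp, thus occurs at 3 places in this annotation. The 3 are called the nested copies below.

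The other 3 genes overlap no listed gene. LOC109431912 (transcript XM_019708218, scaffold NW_021838154.1, positions 7203440 to 7322641) is the only one described as myophilin without the ending "-like", and its span is 119202 bp. LOC115266049 (transcript XM_029871895, positions 5200338 to 5348907) lies 1854532 bp before it on the same scaffold and spans 148570 bp. LOC115260117 (transcript XM_029861022, scaffold NW_021839215.1, positions 116810 to 118178) is by far the shortest, at 1369 bp. These positions are those of the deposited table, whose genome build no source used here names.

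A RefSeq gene table of another assembly, AalbF5, held 3 of the 6 genes by gene ID, namely LOC109432989 of the nested copies and LOC109431912 and LOC115260117 of the others. In that assembly the latter 2 are near neighbours, with 2 genes between them. That share (50.0%) is close to the 54.2% of all genes with values that the table held, so the absence of an ID there is not particular to myophilin. The nesting was not seen in that assembly. LOC109432989 is on chromosome 1 there, while LOC109397703, the Mp20-like gene around it here, has its chromosome given as unknown. The Mp20 genes LOC109432988 and LOC115269578 were absent, so the nesting in them could not be looked up.

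The estimated counts carry decimals, which arise where reads fitting more than one gene are split between the candidates, and none of the 6 genes had whole numbers throughout. In each of the 6 libraries the counts of the 3 nested copies added up to a whole number, within the 0.015 that rounding to 2 decimals allows for 3 genes. The counts of the 3 other copies did so as well. Among the 11 myophilin and Mp20 genes with values, all 231 single genes, pairs and triples were examined, and 4 were whole in every library. They were the nested copies, the other copies, the 3 Mp20 genes around the nested copies, and the pair of remaining Mp20 genes (LOC109403697 and LOC115267914). No other combination was whole in more than 2 of the 6 libraries. The 4 sets divide the 11 genes without overlap. A set's total is therefore a count of reads, while the value of each copy within it depends on how shared reads were divided, and the 2 sets of myophilin genes showed no exchange of fractional counts with each other or with Mp20.

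The totals of the nested copies did not overlap between the groups. They were 721, 712 and 931 counts in control libraries 1, 2 and 3, and 461, 467 and 483 counts in overexpression libraries 1, 2 and 3. Every overexpression library lay below every control. The 95% counting interval was 441 to 528 for the highest overexpression total and 661 to 766 for the lowest control (exact Poisson). Such intervals cover counting error within a library only, not the variation between libraries, and this set holds the gene that chose the family. On the CPM scale the set averaged 48.4 ± 6.97 in controls and 29.7 ± 1.22 with overexpression (SD, n = 3), or 61.3% of the control. The SD of the overexpression totals, 11.4 counts, was smaller than the 21.7 that counting alone would give, so it understates the error. The log2 fold change of the summed set was -0.71 ± 0.11 (SE). Control library 3 was the high one, and without it the log2 ratio of the mean CPM was -0.58, against -0.71 with all libraries.

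The totals of the other copies overlapped between the groups. They were 3715, 3739 and 3860 counts in the controls and 3599, 3788 and 3424 counts with overexpression. The second overexpression library lay within the control range on this scale, and the other two lay below it. The set averaged 232 ± 3.35 and 227 ± 9.1 CPM (SD, n = 3), or 97.9% of the control, with a log2 fold change of -0.03 ± 0.05 (SE). The difference in response between the 2 sets was not tested, since the group difference had been used in choosing the genes.

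**Figure D1:**
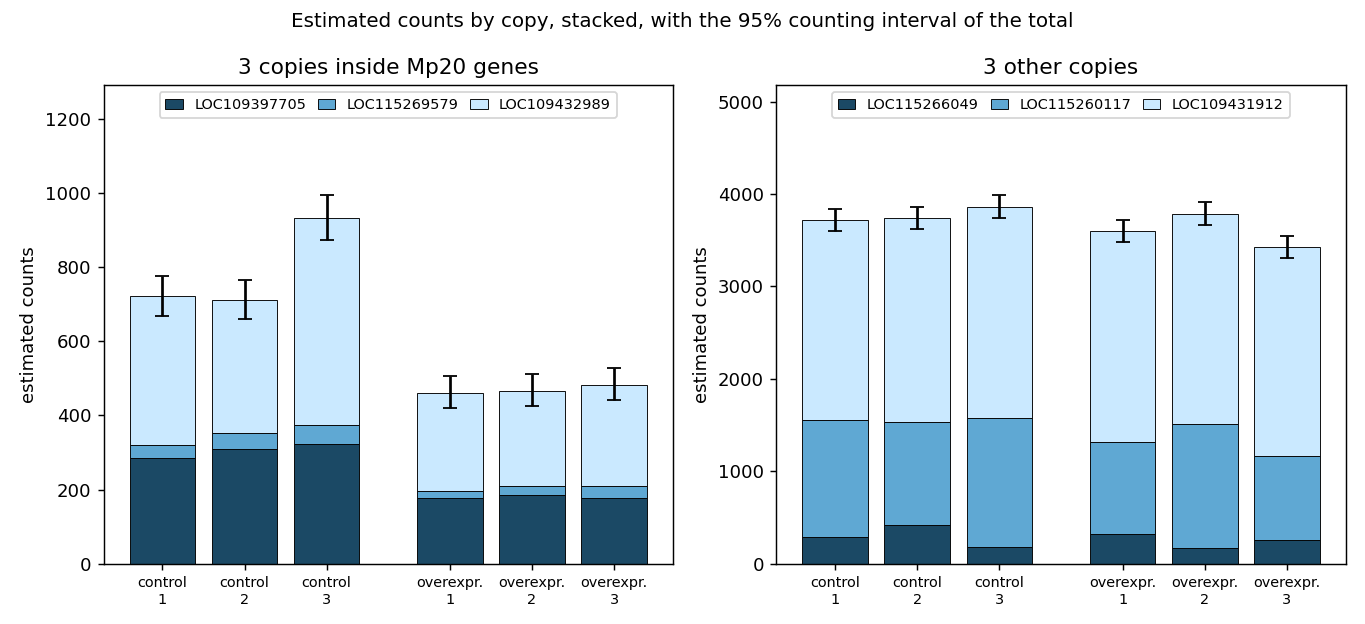
Estimated counts of the 3 nested copies (left, inside Mp20 genes) and the 3 other copies (right) in each library, stacked by gene on a linear axis from 0. Black bars are the 95% counting intervals of the totals, which cover counting error only. The totals do not overlap on the left (712 to 931 against 461 to 483) and overlap on the right (3715 to 3860 against 3424 to 3788).

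Each nested copy was lower with overexpression to a similar extent. LOC109397705 had 284.54, 309.84 and 324.02 estimated counts in the controls and 177.02, 184.33 and 177.64 with overexpression. All 3 overexpression values lay below all 3 controls, and the replicates lay close together. The control mean was 18.8 ± 0.85 CPM and the overexpression mean 11.3 ± 0.277 CPM (SD, n = 3), or 60.2% of the control, a log2 fold change of -0.73 ± 0.11 (SE). The SD of its 3 overexpression counts, 4.05, was smaller than the 13.4 that counting alone would give at their mean, so this spread understates the error of the gene.

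LOC109432989 had 400.91, 360.61 and 556.54 estimated counts in the controls and 266.07, 256.67 and 273.16 with overexpression. The groups did not overlap, and control library 3 stood above the other controls. Here too the SD of the overexpression counts, 8.27, was smaller than the 16.3 that counting alone would give. LOC109432989 averaged 27.0 ± 6.04 and 16.7 ± 0.749 CPM (SD, n = 3), or 62.0% of the control, a log2 fold change of -0.69 ± 0.16 (SE), which was -0.50 without control library 3. LOC115269579 was the rarest copy, with 35.55, 41.55 and 50.44 estimated counts in the controls and 17.91, 26 and 32.2 with overexpression. Its groups were separated by little more than 3 counts, well within counting error. It averaged 2.61 ± 0.412 and 1.6 ± 0.478 CPM, or 61.5% of the control, a log2 fold change of -0.71 ± 0.29 (SE).

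The division of reads among the nested copies hardly differed between the groups. LOC109432989 held 55.3% ± 4.57 of the set's counts in controls and 56.4% ± 1.38 with overexpression, LOC109397705 held 39.3% ± 4.36 and 38.2% ± 1.36, and LOC115269579 held 5.39% ± 0.453 and 5.37% ± 1.4 (SD, n = 3). These differences were smaller than the spread between libraries. The 3 near-equal log2 fold changes are thus not 3 separate measurements, because the copies share reads.

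Among the other copies the division of reads did differ between the groups for LOC109431912. LOC109431912, the most heavily read gene of the family, had 2155.55, 2208.7 and 2285.76 estimated counts in the controls and 2284.88, 2275.89 and 2253.8 with overexpression. Its counts overlapped between the groups, while on the CPM scale, which allows for depth, the controls (135 to 138 CPM) lay just below the overexpression libraries (142 to 145 CPM). It averaged 136 ± 1.89 and 143 ± 1.41 CPM (SD, n = 3), or 105% of the control, a log2 fold change of 0.07 ± 0.05 (SE). The SD of its overexpression counts, 16, was smaller than the 47.7 that counting alone would give, so this spread understates the error. As its share of the set was 58.8% ± 0.652 in controls and 63.1% ± 2.89 with overexpression while the set's total was 97.9% of the control, this small difference depends on how the set's reads were divided.

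LOC115260117 had 1269.79, 1115.62 and 1389.45 estimated counts in the controls and 988.12, 1339.32 and 915.03 with overexpression, and the second overexpression library lay among the controls. It averaged 77.4 ± 8.35 and 68.1 ± 13.8 CPM, or 87.9% of the control, a log2 fold change of -0.19 ± 0.14 (SE), which was -0.36 without overexpression library 2 and -0.09 without overexpression library 3. LOC115266049 had 289.67, 414.68 and 184.79 estimated counts in the controls and 326.01, 172.8 and 255.17 with overexpression, with the groups fully interleaved. It averaged 18.3 ± 7.06 and 15.8 ± 4.76 CPM, or 86.8% of the control, a log2 fold change of -0.21 ± 0.31 (SE). Its direction turned when control library 2 (log2 fold change 0.11) or overexpression library 2 (0.01) was left out.

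The split of reads between these 2 genes varied from library to library. LOC115266049 took 18.6%, 27.1% and 11.7% of their joint counts in the controls and 24.8%, 11.4% and 21.8% with overexpression. Over the 6 libraries Pearson's r between them, of log2(CPM + 1), was -0.63 (exact permutation p = 0.194) and Spearman's rho was -0.54 (exact permutation p = 0.297). Adjusted over the 15 pairs of myophilin genes computed, the values were 0.428 and 0.495. Without the 2 libraries farthest from the median of LOC115266049, r was 0.16. With group means removed it was -0.84, for which no test was run. No relation was thus shown or excluded, and as the 2 genes share reads, r also depends on how these were divided. Of the 15 pairs none passed after adjustment. The smallest adjusted p for r was 0.104 (exact permutation test), between the nested copies LOC109397705 and LOC115269579, which share reads. Values of r for pairs with a nested copy or LOC109431912 are not given, because the libraries of these genes fall apart by group. Nothing is read from the tests of those pairs, though they enter the adjustment.

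Over the whole family, 3 of the 6 genes had all overexpression libraries below all controls, against 5.12% of all genes tested, and 1 had them above (10.4% of all genes were apart in either direction). By DESeq2's Wald test 1 of the 6 was called, LOC109397705 as lower, against 0.0638% in either direction and 0.0298% as lower of the 23529 genes it was run on. Nothing is read from these counts, because the same contrast chose the genes and copies share reads. Summed, the 6 genes stood at 280 ± 9.32 CPM in controls against 257 ± 8.57 CPM in overexpression libraries (SD, n = 3), or 91.6% of the control. The sum lay lower in every overexpression library (251 to 267 CPM) than in any control (272 to 290 CPM), and most of the difference came from the nested copies, which held 48.4 of the 280 CPM in controls and 29.7 of the 257 CPM with overexpression.

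**Figure D2:**
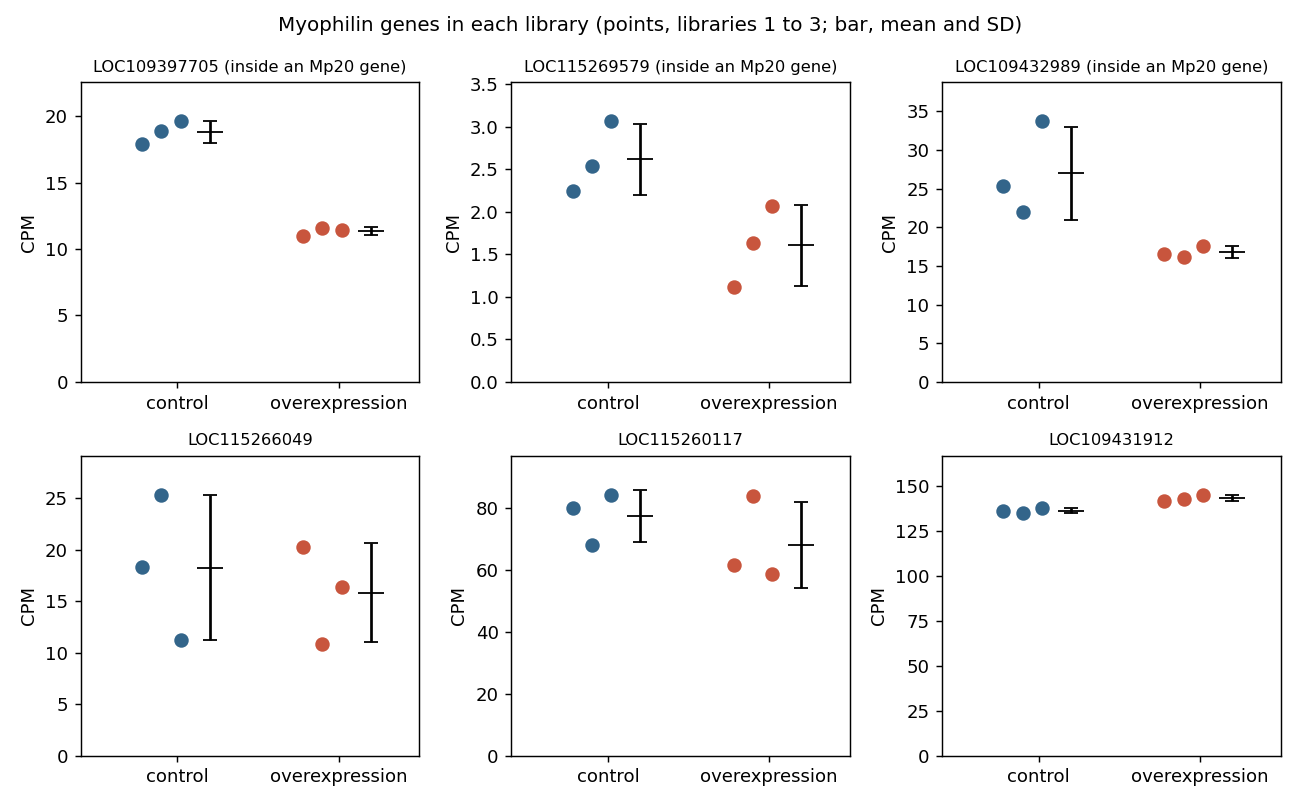
CPM of each myophilin gene in the 6 libraries, with the mean and SD of each group, on linear axes from 0. The nested copies in the top row are lower in all 3 overexpression libraries, at 60.2% to 62.0% of the control, while LOC115266049 and LOC115260117 overlap and LOC109431912 stands at 105% of the control.

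The copies were then ordered by the reads they took. Transcript lengths are not in the table, so this is an order of counts and not of transcript levels per length. LOC109431912 held 52.2% of the family's counts (47.7% to 57.7% over the libraries) and LOC115260117 held 27.0% (23.4% to 31.5%). LOC109432989 followed with 8.06%, LOC115266049 with 6.39%, LOC109397705 with 5.56% and LOC115269579 with 0.777%. The first exceeded the second, the second the third, and the fifth the sixth in all 6 libraries. For each, p was 0.03125 in a two-sided exact sign-flip permutation test, the smallest that 6 libraries allow. Adjusted over the 5 neighbouring pairs it was 0.0521. The order tested was taken from the same libraries. The first gene shares reads with the second, and the fifth with the sixth, so their ratios depend on how those reads were divided. LOC109397705 and LOC115266049 changed places in the controls, where they held 6.71% ± 0.277 and 6.57% ± 2.73 (SD, n = 3), a difference within their spread. When the genes were ranked anew by the controls alone, 4 of the 5 neighbouring pairs had the same order in every control library. The ranking over all libraries has partly different neighbouring pairs, of which 3 had the same order in every library. In that ranking, the pairs LOC109432989 with LOC115266049 and LOC115266049 with LOC109397705 each reversed in a control library. The controls were thus not more consistent for the same pairs. Over all libraries, LOC109432989 and LOC115266049 did not differ beyond their spread (higher in 4 of 6 libraries, exact permutation p = 0.25), nor did LOC115266049 and LOC109397705 (4 of 6 libraries, exact permutation p = 0.5).

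The genes around and beside myophilin were read next. The 3 Mp20 genes that enclose the nested copies were rare, with set totals of 39, 35 and 29 counts in controls and 31, 42 and 35 with overexpression. The groups overlapped, the set stood at 107% of the control, and its log2 fold change was 0.10 ± 0.25 (SE). The nested copies had 788.0 counts on average in controls, so they took many more reads than the genes around them. The strand used in counting is not given, and whether exons of these genes overlap is not in the table. The totals of both sets were whole numbers, so no fractional counts passed between them.

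The remaining pair of Mp20 genes is more abundant. Their totals were 848, 972 and 815 counts in controls and 773, 775 and 829 with overexpression, which overlap, at 54 ± 5 and 50 ± 2.86 CPM (SD, n = 3). The log2 fold change of the pair was -0.11 ± 0.09 (SE). Most of it was LOC115267914, with 48.3 ± 3.76 and 44.7 ± 2.26 CPM.

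The 9 other genes named for calponin or Mp20 were counted as a list of calponin relatives, of which 8 had values and 7 passed the filter on low counts. With edgeR's quasi-likelihood test 0 rose and 0 fell, 0 had an unadjusted p under 0.05, and 0 were called by DESeq2. In none did the groups separate. Of all genes tested, 4.92% were under that unadjusted limit and 10.4% were apart in either direction, so 7 genes are too few to read these zeros. The log2 fold changes were below 0 in 6 genes and above it in 1, where 49.6% of all genes tested were below 0. Their median was -0.07, against 0.00 for all genes tested. The most heavily read was LOC109417717, leucine-rich repeat and calponin homology domain-containing protein 1, with 150 ± 10.2 and 144 ± 5.25 CPM. The rare LOC115262802, a calponin homology domain-containing gene, stood at 1.24 ± 0.675 and 0.914 ± 0.641 CPM.

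**Figure D3:**
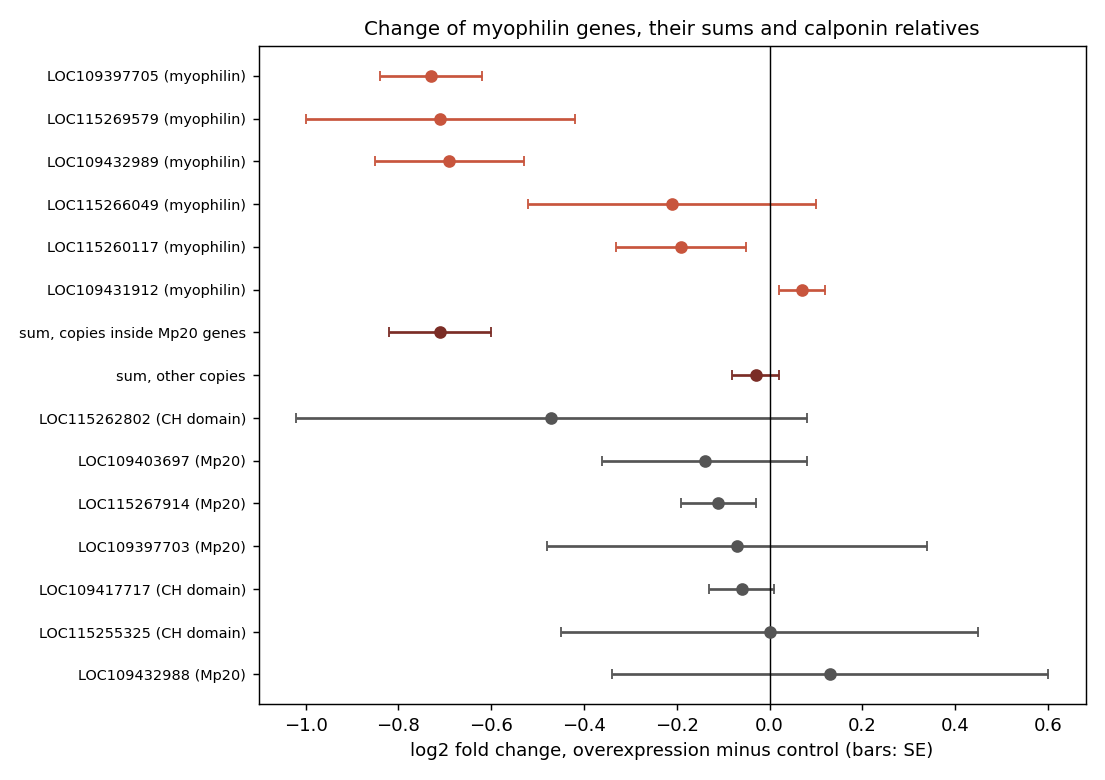
Log2 fold change, overexpression minus control, with SE bars, for the 6 myophilin genes, the 2 sums of read-sharing copies and the 7 tested calponin relatives (Mp20, muscle-specific protein 20; CH, calponin homology). The nested copies and their sum lie at -0.73 to -0.69, the other copies and their sum at -0.21 to 0.07.

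A second list held 27 other proteins with calponin homology domains, such as spectrins, filamins and microtubule plus-end proteins, and 25 were tested. None rose or fell in edgeR and 0 were called by DESeq2. Of the 25, 1 had an unadjusted edgeR p under 0.05, where 4.92% of all genes tested did. The log2 fold changes were below 0 in 16 genes and above it in 9, with a median of -0.04. Of all genes tested, 49.6% were below 0. The microtubule plus-end protein RP/EB family member 1 (LOC109403775) stood at 251 ± 14.9 and 267 ± 12.1 CPM. Spectrin beta chain-like (LOC109399010), a component of the membrane skeleton, stood at 246 ± 8.36 and 238 ± 4.65 CPM, and spectrin beta chain, non-erythrocytic 5 (LOC109428096) at 152 ± 13.4 and 149 ± 4.67 CPM. In 1 of the 25 genes, MICAL-like protein 1 (LOC109429236), the groups did not overlap, where 10.4% of all genes tested were apart in either direction. It stood at 155 ± 6.87 and 135 ± 5.18 CPM, with a log2 fold change of -0.20 ± 0.06 (SE) and an edgeR adjusted p of 0.963.

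Sarcomere genes give the muscle background. Of 105 rows matched by name, 98 had values and 68 were tested. In edgeR 0 rose and 0 fell, 7 had an unadjusted p under 0.05, and 5 of these were lower, where 2.5% of all genes were lower at that limit. The list's log2 fold changes were below 0 in 45 genes and above it in 23, with a median of -0.06, where 49.6% of all genes tested were below 0. The groups did not overlap in 9 genes that were lower and 3 that were higher, where 5.12% of all genes were lower and 10.4% were apart in either direction. The list's summed level was 3470 to 3540 CPM in controls and 3320 to 3410 CPM with overexpression, so it was lower in every overexpression library, at 95.8% of the control. The part of this shift in the myophilin values was not tested, and the nested copies stood at 61.3% of the control beside it.

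The 4 most heavily read sarcomere genes were all slightly lower with overexpression, at 93.0% to 96.9% of the control. Titin (LOC109409561), the elastic protein of the sarcomere, stood at 404 ± 7.25 and 391 ± 11.1 CPM. A titin-like gene (LOC109621434) stood at 229 ± 4.25 and 212 ± 5.48 CPM, and its groups did not overlap (edgeR adjusted p 0.963). Muscle actin and muscle myosin heavy chain-like, given above, had log2 fold changes of -0.07 ± 0.07 and -0.06 ± 0.06 (SE). DESeq2 called 1 sarcomere gene, a troponin C-like calcium sensor (LOC109418939, named after its values were seen), with 88.8 ± 8.42 and 60.9 ± 7.89 CPM and a DESeq2 adjusted p of 0.0115. Its edgeR adjusted p was 0.96. Another troponin C-like gene (LOC109404813, named likewise) went the other way, at 10.6 ± 0.769 and 16.3 ± 1.23 CPM.

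**Figure D4:**
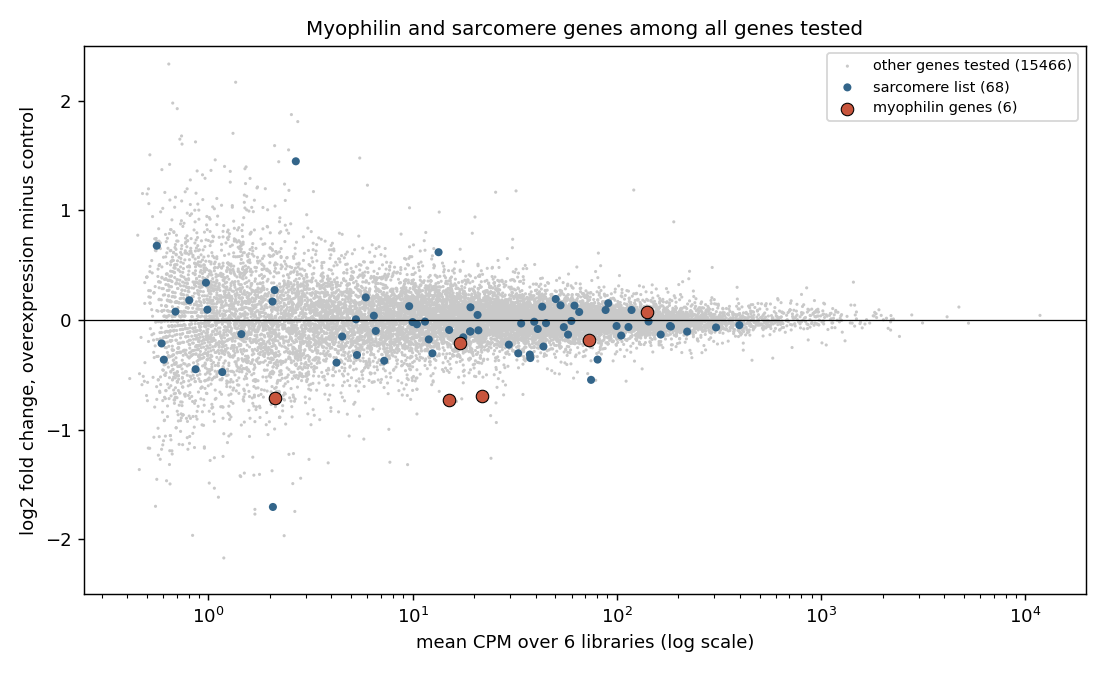
Mean CPM over the 6 libraries (log axis) against log2 fold change for all 15540 genes tested, of which 9 lie outside the drawn range of 2.5. The 3 nested myophilin copies lie near -0.7, and the 68 sarcomere genes centre at -0.06. Of all genes tested 1.33% lay at or below LOC115269579 (-0.71), and LOC109432989 (-0.69) lay above that value. Nothing is read from these positions, since the same contrast helped to choose the family.

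Markers of other tissues were summed in the same way, and no gene of these lists was called by edgeR's quasi-likelihood test or by DESeq2. At an unadjusted edgeR p under 0.05 there were 2 of 25 germ line genes tested, 2 of 19 follicle cell and eggshell genes, 5 of 56 haemocyte genes (5 of them lower), 1 of 5 fat body genes and 2 of 14 midgut genes, where 4.92% of all genes were under that limit. No flight muscle gene passed the filter on low counts. Germ line genes summed to 13200 to 13400 CPM in controls and 13200 to 13500 with overexpression, and follicle cell and eggshell genes to 6310 to 6460 and 6200 to 6700 CPM. Haemocyte genes summed to 657 to 699 and 669 to 677 CPM, with 63 of 108 below 1 CPM on average. Fat body genes summed to 129 to 160 and 156 to 214 CPM, most of it apolipophorin-3-like (LOC109408437, 131 ± 15.6 and 149 ± 4.11 CPM), with 13 of 19 below 1 CPM. Overexpression library 1 stood apart in the vitellogenin-A1 genes of this list, with 286 counts of LOC109413693 (13 to 24 in the other libraries) and 305 of LOC109413684 (0 to 4). Midgut genes summed to 185 to 197 and 146 to 185 CPM, most of it neurotrypsin-like (LOC109426828), and 124 of 135 were below 1 CPM. This sum too was lower in every overexpression library, at 85.9% of the control, and its part in the myophilin values was not tested. The 4 flightin-like genes, which mark indirect flight muscle in *Drosophila*, summed to 0.504 to 1.09 and 0.45 to 0.815 CPM, near 0.

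Finally, genes with patterns like those of the copies were looked up among 11433 genes of at least 5 CPM, for the 5 copies that reach this level themselves (LOC115269579 does not), by Pearson's r of log2(CPM + 1) over the 6 libraries, as a description. For LOC109397705 they were LOC109416173 (AP-3 complex subunit beta-2-like, r = 0.996), LOC109422675 (ataxin-2 homolog, 0.991) and LOC109426369 (DNA polymerase alpha catalytic subunit, 0.987). For LOC109432989 they were a tubulin alpha-1 chain-like gene (LOC109422743, r = 0.99), LOC115269445 (a mitochondrial NADH dehydrogenase subunit, 0.973) and LOC109403286 (dnaJ homolog subfamily C member 30, 0.972). LOC109431912 was most like LOC109399669 (proteasome subunit beta type-7-like, r = 0.989). The libraries of LOC109397705, LOC109432989 and LOC109431912 fall apart by group. Their values of r thus partly restate the group difference that helped to choose the family. LOC115260117 was most like LOC115266073 (nuA4 complex subunit EAF3 homolog, r = 0.995), and LOC115266049 was most like LOC109411331 (a tyrosine-protein phosphatase, r = 0.977). With 6 libraries such values are common, as 63 to 92 genes (0.551% to 0.805%) reached an r of 0.9 with each of the 5 copies. Of 52 sarcomere genes compared at most 1 did so, and 52 genes are too few to tell this from that share. When group means were removed first, 166 to 240 genes (1.45% to 2.1%) reached an r of 0.9. Fewer independent values remain after this removal, so these counts are not compared with those above. The likest genes of LOC109397705 were then others, led by LOC109425019 (60S ribosomal export protein NMD3, r = 0.998). Those of LOC109432989 and of LOC109431912 were others too.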

How the data were processed

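Ovary RNA-seq libraries of 2 groups (control and Aalpi18529 overexpression, 3 each) were compared. The table deposited by the authors holds estimated counts with 2 decimals, not scaled between libraries, headed as read counts per the file headers. HISAT and Bowtie2 are named in the submitters' processing notes. Their roles, the counting program and the genome build are not stated in any source used here. Of 34479 rows, 10950 blank in all libraries were left out. Fits were made on rounded estimated counts with filterByExpr (15540 genes left), TMM scaling and edgeR 4.0.16 (R 4.3.3), the quasi-likelihood F test with no covariate and Benjamini-Hochberg adjustment over all genes at 0.05. SEs are the fold change over the square root of F. CPM used TMM-scaled totals of the genes tested. DESeq2 1.42.0 and limma 3.58.1 (voom) were alternatives. The procedure was tested on simulated data. Per-length levels had been planned, but no lengths were at hand, so counts were ordered instead.

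The genes and lists were chosen with earlier results of these data known. Read-sharing sets were defined after the values were seen. Lists came from name patterns that also catch some unrelated names, such as neurotrypsin among midgut genes. Named genes were every member, the 4 most heavily read genes of each list, called genes and the 3 likest genes per copy of at least 5 CPM, and not all of these are printed. The columns belonging to no sample numbered 0. Alternatives covered scaling, filters, tests, the replicate block and leaving out each library.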

Additional observations from a re-analysis of the deposited data

How the results depend on the processing

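The count of 2 genes called over the whole table was 15 with the DESeq2 Wald test, which was run on 23529 genes rather than 15540, and ranged from 0 to 2 when 1 library was left out, where 707 to 833 genes had an unadjusted p under 0.05. With the replicate number as a block it was 0, with 713 genes at an unadjusted p under 0.05. Same-numbered libraries did not deviate together (r = -0.01, 0.03 and 0.01), so the numbers share only a label. Among the myophilin genes, LOC109397705 was called by DESeq2 alone (log2 fold change -0.73), which is no support, since this contrast chose the gene. Its log2 fold change lay between -0.76 and -0.70 over 13 alternatives. LOC115266049 ranged from -0.46 to 0.11 as libraries were left out and changed direction without control library 2 (0.11) and without overexpression library 2 (0.01). LOC115260117 ranged from -0.36 to -0.09. LOC115269579 could not be fitted under the stricter filter of 5 CPM in 3 libraries. The list counts stayed at 0 except for sarcomere genes with DESeq2 (1). Sums of copies kept their direction, the nested copies ranging from -0.78 to -0.58 and the family from -0.16 to -0.10 as libraries were left out. Scaled by library size alone or by DESeq2 size factors, the sarcomere sum stood at 95.7% and 95.8% of the control, with every overexpression library lower. An order per coding length was not run, for want of lengths. The causes of these changes were not tested. LOC115269579 had only 42.5 counts on average in controls, which limits its precision.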
